A study of Homo sapiens with 4 samples.

Results

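The genes described here are MTAP and 9 others of methionine salvage, S-adenosylmethionine synthesis and polyamine synthesis, 10 of the 58735 genes in the count table. They were chosen by pathway from an earlier look at this same comparison, in which MTAP stood out by its size, so their differences between the subsets are given as a description and without a p-value. The libraries were made from a human lung adenocarcinoma line labelled A549, of wild-type genotype per the labels. The cells had received no drug, were stained with an antibody against the adhesion glycoprotein ICAM1 and were sorted on that stain. Each subset, ICAM1-high and ICAM1-low, is represented by 2 libraries, and nothing in the labels says whether those of a subset came from separate cultures. Any p-value therefore measures the spread between libraries, which may be technical.

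Methionine salvage recovers the methylthio group that polyamine synthesis sheds. MTAP splits methylthioadenosine, the by-product of spermidine and spermine synthesis, into adenine and a sugar phosphate, which MRI1, APIP, ENOPH1 and ADI1 carry on toward methionine. MAT2A, with its regulatory subunit MAT2B, turns methionine into S-adenosylmethionine, AMD1 decarboxylates that product to the aminopropyl donor, ODC1 makes putrescine, and SRM joins the donor to putrescine to give spermidine. Tumours often lose MTAP together with its neighbour CDKN2A, and A549 is known for a homozygous deletion of both genes.

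Library totals ran from 16272591 to 17638647 counts, at which a single count equals 0.0537 to 0.0652 CPM (counts per 1e6 counts, scaled by edgeR's TMM factors). Of 12 genes listed as typical of A549, namely keratins, the epithelial adhesion gene EPCAM and redox enzymes, all 12 were counted in every library. All were abundant enough to test, with 9 lower and 2 higher in ICAM1-high. Over all genes tested, 29.4% were lower and 30.4% higher, and 71.9% of those with a mean of at least 10 CPM were either. Markers of other cells differed between the same libraries. The summed level of 10 fibroblast markers was 32.6 and 36.6 CPM in ICAM1-high, against 5.25 and 6.52 CPM in ICAM1-low. Of the 6 abundant enough to test, LUM, FAP and PDGFRB passed the filter on low counts through ICAM1-high alone, so that their direction was fixed by being tested. POSTN was at 0 in every library, COL1A2 and COL3A1 were at 0 in both ICAM1-high libraries, and COL1A1 gave most of the sum. The summed level of 8 endothelial markers was 8.42 and 8.33 CPM in ICAM1-high, against 0.959 and 0.978 CPM in ICAM1-low. Of the 3 abundant enough to test, CDH5 and ERG likewise passed the filter through ICAM1-high alone, and the others were too low to test. For 8 leukocyte markers the sums were 26.0 and 24.8 CPM in ICAM1-high, against 18.6 and 19.2 CPM in ICAM1-low, with 1 of 2 tested higher and 1 lower, and PTPRC and CD3E were at 0 throughout. The part of such cells in the results below was not tested.

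MTAP was present in both ICAM1-high libraries and almost absent from both ICAM1-low libraries. It had 459 and 463 counts in ICAM1-high, against 1 and 8 counts in ICAM1-low. The exact Poisson intervals (95%, counting error only) were 418 to 503 and 422 to 507 counts in ICAM1-high, and 0.0253 to 5.57 and 3.45 to 15.8 counts in ICAM1-low. The ICAM1-high libraries were thus almost equal, the ICAM1-low libraries lay near the floor of detection, and the subsets did not overlap. In scaled units the level was 24.9 ± 0.413 CPM in ICAM1-high, against 0.293 ± 0.324 CPM in ICAM1-low (SD, n = 2 each), an 85.1-fold ratio of means. The fitted log2 fold change was 6.39 (standard error, SE, 0.25). It was 5.55 without ICAM1-low replicate 1 and 8.44 without ICAM1-low replicate 2, so its size rests on single counts in ICAM1-low. Bulk libraries cannot tell fewer cells that carry a transcript from less RNA per cell.

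MTAP (ENSG00000099810) lies on chromosome 9 at 21802543 to 21937651 on the plus strand of GRCh38 in the GENCODE annotation. The window around its start is printed because MTAP has by far the widest difference of the 10. It is the RefSeq sequence of GRCh38.p14, chr9:21802386-21802685, plus strand, from 250 bases before to 50 bases after the start that RefSeq annotates, which lies downstream of the GENCODE start given above. Capitals would mark the motifs searched below, of which it held none.
MTAP: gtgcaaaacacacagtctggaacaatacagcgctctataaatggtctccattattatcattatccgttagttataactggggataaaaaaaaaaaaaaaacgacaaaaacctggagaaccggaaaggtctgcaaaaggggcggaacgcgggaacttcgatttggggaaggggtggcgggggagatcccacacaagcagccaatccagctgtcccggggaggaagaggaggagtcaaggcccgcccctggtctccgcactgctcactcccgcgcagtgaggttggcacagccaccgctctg

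Other transcripts of the same stretch of chromosome 9 followed the same split. CDKN2A, which encodes cell cycle inhibitors, had 1009 and 1214 counts in ICAM1-high and 0 and 0 in ICAM1-low. CDKN2B, a related inhibitor gene, had 174 and 182 counts in ICAM1-high and 0 and 0 in ICAM1-low. An unnamed antisense transcript inside MTAP (ENSG00000265194) had 12 and 13 counts in ICAM1-high and 0 and 0 in ICAM1-low. An unnamed coding model that shares the first exons of MTAP (ENSG00000264545) had 0 counts in every library. Reads from this stretch are at odds with the A549 label of both ICAM1-high libraries, and no comparison can be made without such a library. No source used here gives the strand setting of the counting, and reads of MTAP and of its antisense partner cannot be told apart. The retrocopies MTAPP1 and MTAPP2 had at most 2 counts in any library.

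A difference of this size was not confined to MTAP. Of 16250 genes tested, 141 had a log2 fold change at least that large in the same direction, MTAP included. Of those tested, 14 had no more than its 9 counts over the ICAM1-low libraries and no fewer than its 922 over the ICAM1-high libraries. These 14, MTAP included, passed the filter on low counts through ICAM1-high alone, so that their direction was fixed by being tested. The 5 protein-coding genes outside the lists with the nearest profile were SDC2, CXCR4, RNF182, STING1 and MATK, ranked by Euclidean distance of log2 CPM over the 4 libraries among 13238 candidates. Their distances ran from 0.60 to 1.53 on the log2 scale. SDC2, the nearest, had 358 and 401 counts in ICAM1-high and 2 and 8 counts in ICAM1-low. These genes lie on chromosomes 8, 2, 6, 5 and 19. The listed genes CDKN2A and CDKN2B of chromosome 9 were not candidates, so nothing about the locus is read from these positions. Chosen by likeness to MTAP, the 5 genes also passed the filter on low counts through ICAM1-high alone.

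**Figure D1:**
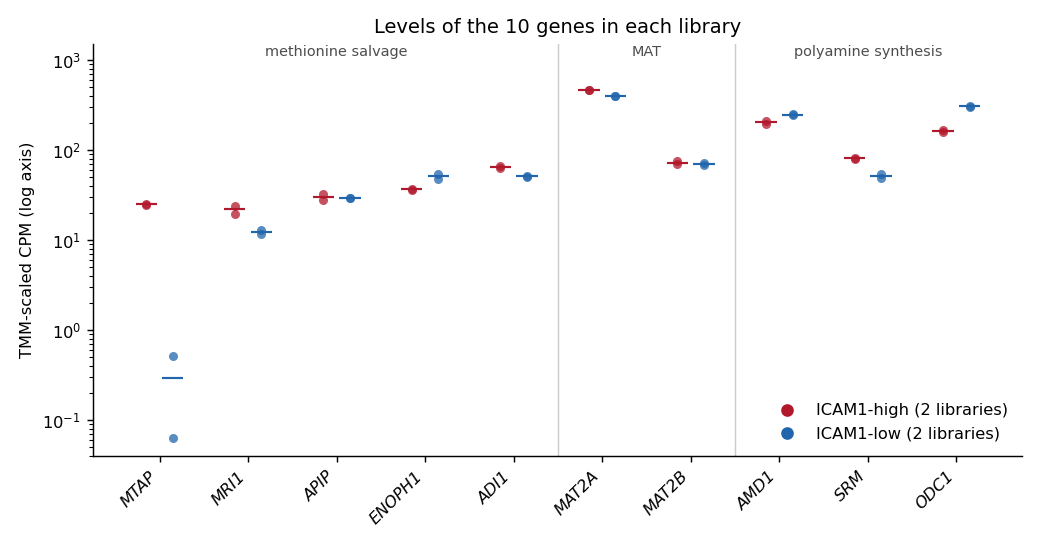
TMM-scaled CPM (log axis) of each of the 10 genes in the 2 ICAM1-high (red) and 2 ICAM1-low (blue) libraries, with bars at the means. MTAP averages 24.9 CPM in ICAM1-high, against 0.293 CPM in ICAM1-low, while the other 9 genes stay within a 2-fold range between the subsets.

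By the edgeR quasi-likelihood test across all genes, 5 of the 10 were higher and 3 lower in ICAM1-high, or 80.0% in all. Of the 16250 genes tested 59.7% were called, 30.4% higher and 29.4% lower. All 10 had a mean of at least 10 CPM, a level at which 71.9% of genes tested were called. All 10 passed the filter on low counts. MTAP passed it through ICAM1-high alone, and since the genes were chosen on this contrast nothing is read from their share. Their median log2 fold change was 0.13, beside 0.01 over all genes tested.

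The salvage enzymes after MTAP did not share its pattern. MRI1, the isomerase that acts next, was at 19.6 and 24.1 CPM in ICAM1-high, against 11.6 and 12.8 CPM in ICAM1-low. The subsets did not overlap, though the ICAM1-high libraries lay apart from each other, with a coefficient of variation of 14.5% against 4.97% from counting alone. Its log2 fold change was 0.84 (SE 0.12). APIP, the dehydratase of the next step, was at 27.8 and 32.5 CPM in ICAM1-high, against 29.04 and 29.1 CPM in ICAM1-low. The ICAM1-low values of APIP fell between the ICAM1-high values, and the log2 fold change was 0.05 (SE 0.09).

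ENOPH1, the enolase-phosphatase of the pathway, went the other way. It was at 36.9 and 36.0 CPM in ICAM1-high, against 54.4 and 48.2 CPM in ICAM1-low, with a log2 fold change of -0.49 (SE 0.08). Both ICAM1-high values lay below both ICAM1-low values. ADI1, the dioxygenase that forms the keto acid precursor of methionine, was at 63.3 and 66.3 CPM in ICAM1-high, against 50.4 and 51.1 CPM in ICAM1-low, with a log2 fold change of 0.35 (SE 0.07). Its subsets were separate as well, and these consecutive enzymes of the pathway differed in opposite directions. With 2 libraries in each subset, separate values alone are weak evidence of a difference, here and for the other genes.

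Ratios of counts within a library need no scaling, and give only the difference of these genes relative to each other. MRI1 had 0.533 and 0.670 counts per count of ENOPH1 in ICAM1-high, against 0.213 and 0.265 in ICAM1-low, a 2.52-fold difference of the means. ADI1 had 1.72 and 1.84 counts per count of ENOPH1 in ICAM1-high, against 0.927 and 1.06 in ICAM1-low. The summed level of the 4 enzymes after MTAP was 148 and 159 CPM in ICAM1-high, against 145 and 141 CPM in ICAM1-low. The separate differences thus offset each other only in part, and both ICAM1-high sums lay above both ICAM1-low sums.

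Reads of some salvage genes may be shared with neighbours. Exons of MRI1 overlap C19orf53 on the same strand, and C19orf53 had a log2 fold change of 0.16 (edgeR adjusted p = 0.0522), smaller than that of MRI1. Exons of APIP overlap PDHX on the opposite strand, which was higher in ICAM1-high by 0.41 on the log2 scale (SE 0.07, adjusted p = 1.60e-07). A count of APIP reads that ignored strand could hold some from PDHX. ADI1 overlaps an antisense transcript and a long noncoding RNA that had at most 8 counts in any library, and ENOPH1 overlaps no annotated exon of another gene.

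The S-adenosylmethionine synthase genes differed little. MAT2A, the catalytic subunit, was at 458 and 462 CPM in ICAM1-high, against 392 and 399 CPM in ICAM1-low. The subsets were separate, with coefficients of variation of 0.679% and 1.24%, and the log2 fold change was 0.22 (SE 0.04). MAT2B, which binds and regulates MAT2A, was at 74.5 and 70.1 CPM in ICAM1-high, against 71.8 and 68.8 CPM in ICAM1-low. Its values overlapped between the subsets and its log2 fold change was 0.04 (SE 0.06). MAT2A counts per MAT2B count were 6.14 and 6.59 in ICAM1-high and 5.46 and 5.80 in ICAM1-low. Exons of MAT2A overlap GGCX on the opposite strand, which was higher by 0.19 (SE 0.07, edgeR adjusted p = 0.0126), and which had 1112 and 1067 counts in ICAM1-high and 845 and 751 in ICAM1-low, beside 8528 and 8484, and 6130 and 6120, for MAT2A.

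In polyamine synthesis the transcripts of ODC1 and SRM differed in opposite directions. ODC1, which commits ornithine to the pathway, was at 165 and 158 CPM in ICAM1-high, against 307 and 302 CPM in ICAM1-low. That is a log2 fold change of -0.91 (SE 0.04), with subsets far apart and coefficients of variation of 3.31% in ICAM1-high and 1.19% in ICAM1-low. AMD1, the S-adenosylmethionine decarboxylase, was at 211 and 196 CPM in ICAM1-high, against 251 and 243 CPM in ICAM1-low, with a log2 fold change of -0.28 (SE 0.05). The subsets were separate, and the difference was smaller than that of ODC1. SRM, the spermidine synthase, was at 78.8 and 82.3 CPM in ICAM1-high, against 54.1 and 49.0 CPM in ICAM1-low, with a log2 fold change of 0.64 (SE 0.07). Its libraries were separate in the opposite direction.

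ODC1 had 2.10 and 1.92 counts per count of SRM in ICAM1-high, against 5.67 and 6.17 in ICAM1-low, so the mean ratio was 2.95-fold higher in ICAM1-low. AMD1 had 2.68 and 2.38 counts per count of SRM in ICAM1-high, against 4.64 and 4.96 in ICAM1-low. The summed level of the 3 synthesis genes was 456 and 436 CPM in ICAM1-high, against 612 and 594 CPM in ICAM1-low. None of the 3 overlaps an annotated exon of another gene, and their named processed copies had at most 3 counts in any library.

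The start regions of SRM and ODC1 are printed because these enzymes differed in opposite directions while both carry the letters CACGTG, the E-box that MYC and USF proteins bind. Capitals mark CACGTG, which reads the same on both strands. SRM is chr1:11059969-11060268, and ODC1 has a pair of annotated starts, at chr2:10448278-10448577 and chr2:10447963-10448262, each in RefSeq GRCh38.p14 on the minus strand and written in the direction of the gene.
SRM: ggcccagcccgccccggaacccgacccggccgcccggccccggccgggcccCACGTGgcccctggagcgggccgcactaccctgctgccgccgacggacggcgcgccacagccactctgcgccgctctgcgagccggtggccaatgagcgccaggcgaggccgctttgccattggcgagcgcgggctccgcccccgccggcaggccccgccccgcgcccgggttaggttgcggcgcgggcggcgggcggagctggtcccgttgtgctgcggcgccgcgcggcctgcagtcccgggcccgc
ODC1 first start: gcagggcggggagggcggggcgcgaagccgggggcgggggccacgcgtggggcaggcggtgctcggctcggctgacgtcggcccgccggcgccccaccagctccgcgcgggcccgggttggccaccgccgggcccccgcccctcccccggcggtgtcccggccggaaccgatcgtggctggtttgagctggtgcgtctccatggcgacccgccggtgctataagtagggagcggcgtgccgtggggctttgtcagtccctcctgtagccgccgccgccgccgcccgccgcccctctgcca
ODC1 second start: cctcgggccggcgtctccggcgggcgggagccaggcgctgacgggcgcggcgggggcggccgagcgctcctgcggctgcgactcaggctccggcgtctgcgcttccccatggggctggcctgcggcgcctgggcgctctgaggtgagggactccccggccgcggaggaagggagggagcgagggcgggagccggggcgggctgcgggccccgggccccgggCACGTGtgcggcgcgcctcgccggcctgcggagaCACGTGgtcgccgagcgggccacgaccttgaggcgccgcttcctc

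In these windows CACGTG began at base 52 of SRM and at bases 222 and 256 of the second ODC1 window, counted from 1 at the 5′ end, and the first ODC1 window held none. Of the 10 genes, all had at least 1 RefSeq start window, 14 windows in all, including a pair for AMD1 that is offset by a single base. CACGTG was found in 5 of the 14 windows, against 7.26% of all 35116 windows of 300 bases. The 5 windows belong to 5 genes, namely ADI1, ENOPH1, MRI1, ODC1 and SRM. Of these 5 genes ADI1, MRI1 and SRM were higher and ENOPH1 and ODC1 lower in ICAM1-high. The letters TGATGNAA, part of the element that ATF4 binds with C/EBP proteins, were searched on both strands and occurred in 0 of the 14 windows and in 3.62% of all windows. The motifs do not overlap each other in these windows, and a match is only a match of letters.

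Per length of annotated exon, MAT2A was the most abundant of the 10 in ICAM1-high, at 102 RPKM (CPM per kilobase), followed by ODC1 at 54.4, SRM at 42.4 and AMD1 at 28.96 RPKM. In ICAM1-low ODC1 led at 103 RPKM, followed by MAT2A at 88.2, AMD1 at 35.2, SRM at 27.2 and ENOPH1 at 25.3 RPKM. In ICAM1-high ENOPH1 was at 17.99, MAT2B at 14.0, ADI1 at 11.7, MRI1 at 6.33, APIP at 5.64 and MTAP at 1.70 RPKM. In ICAM1-low MAT2B was at 13.6, ADI1 at 9.13, APIP at 5.45, MRI1 at 3.52 and MTAP at 0.0200 RPKM. MRI1 and APIP in ICAM1-high, and SRM and ENOPH1 in ICAM1-low, lay within their spread over 2 libraries. The order depends on which length is used, and with the median transcript length MAT2A led in both subsets and MTAP was last in ICAM1-low only.

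Beyond the 10 genes, 46 others of linked pathways were listed, of which 41 were abundant enough to test. In ICAM1-high 15 were higher, 17 lower and 9 did not pass, with a median log2 fold change of -0.05. Of the 34 with a mean of at least 10 CPM, 88.2% were called, where the share among all genes at that level was 71.9%. These counts rest on the edgeR test adjusted over all 16250 genes, as do the adjusted p-values that follow.

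**Figure D2:**
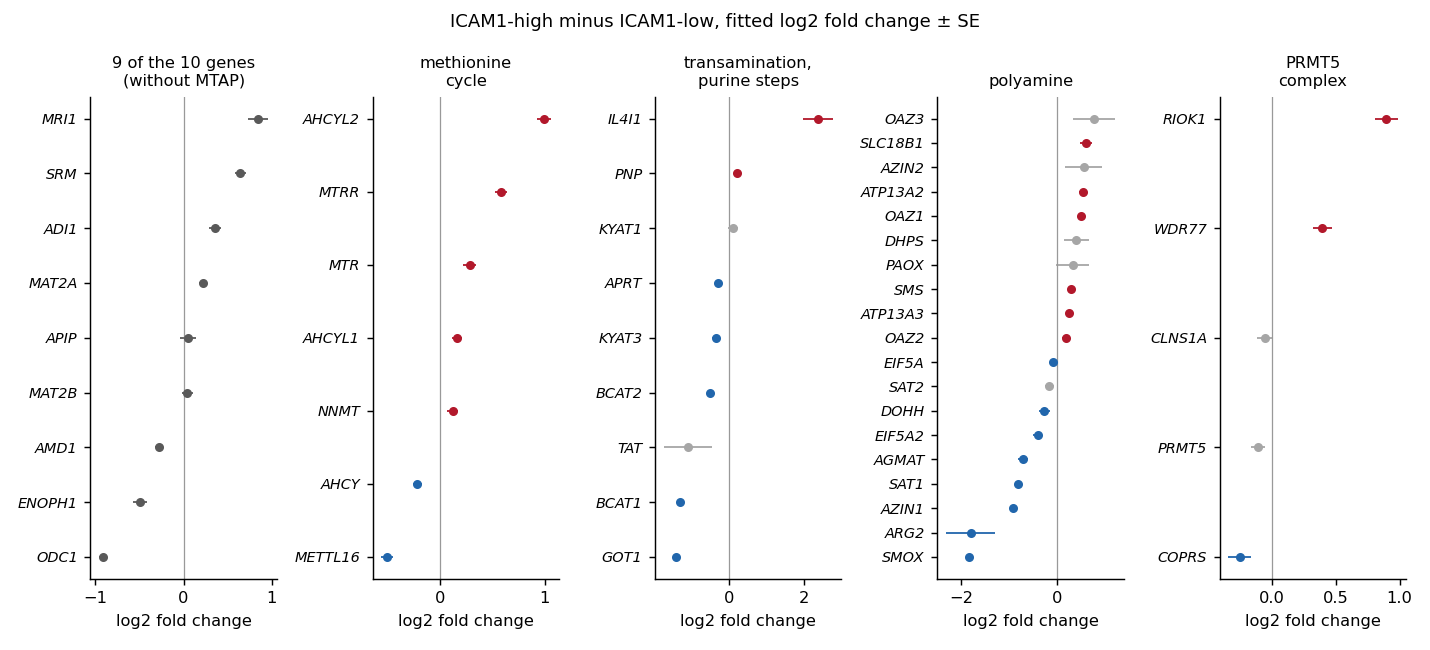
Fitted log2 fold change (ICAM1-high minus ICAM1-low, x axis, a separate scale in each panel) with SE for 9 of the 10 genes (grey; MTAP, at 6.39, is not drawn) and for the tested genes of 4 linked lists, less 1 of the methionine cycle (red called higher, blue called lower, light grey not called). SMOX, GOT1 and BCAT1 lie far to the left of 0, and RIOK1, AHCYL2 and IL4I1 to the right.

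The abundant polyamine breakdown genes SMOX and SAT1 were lower in ICAM1-high. SMOX, the oxidase that turns spermine back into spermidine, was at 446 and 447 CPM in ICAM1-high, against 1621 and 1568 CPM in ICAM1-low. It fell by 1.84 on the log2 scale (SE 0.04, edgeR adjusted p = 1.58e-49), with nearly equal libraries within each subset. SAT1, which acetylates spermidine and spermine for export, was at 810 and 749 CPM in ICAM1-high, against 1390 and 1363 CPM in ICAM1-low, and fell by 0.82 (SE 0.04, adjusted p = 3.11e-29). SMS, the spermine synthase, was at 155 and 155 CPM in ICAM1-high, against 128 and 128 CPM in ICAM1-low, and rose by 0.28 (SE 0.05, adjusted p = 1.85e-06). SMOX counts per SMS count were therefore 2.87 and 2.88 in ICAM1-high and 12.7 and 12.2 in ICAM1-low. SAT2, a relative of SAT1, had overlapping libraries and a log2 fold change of -0.17 (adjusted p = 0.101).

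Genes that set the stability of the ODC1 protein differed in opposite directions. OAZ1, the antizyme that binds ODC1 protein and delivers it to the proteasome, was at 234 and 257 CPM in ICAM1-high, against 179 and 171 CPM in ICAM1-low, and rose by 0.49 (SE 0.05, edgeR adjusted p = 3.00e-14). AZIN1, which binds antizyme and so spares ODC1 protein, was at 162 and 156 CPM in ICAM1-high, against 297 and 301 CPM in ICAM1-low. It fell by 0.91 (SE 0.05, adjusted p = 2.38e-28), close to the value for ODC1 itself. Antizyme mRNA is decoded by a frameshift that polyamines promote, a step that counts of mRNA do not show. ODC1 had 0.706 and 0.615 counts per count of OAZ1 in ICAM1-high, against 1.71 and 1.76 in ICAM1-low. AZIN1 had 0.694 and 0.607 counts per count of OAZ1 in ICAM1-high, against 1.66 and 1.76 in ICAM1-low.

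**Figure D3:**
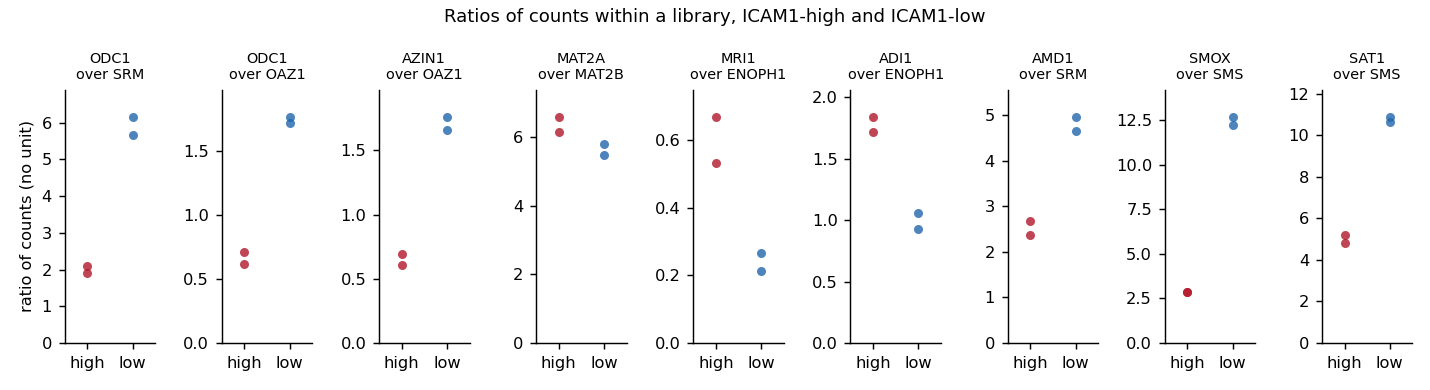
Ratios of raw counts of gene pairs within each library (y axis from 0, no unit), ICAM1-high at the left and ICAM1-low at the right of each panel. ODC1 over SRM is near 2.01 in ICAM1-high and 5.92 in ICAM1-low, and SMOX over SMS near 2.88 and 12.5.

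Both listed P-type ATPases that carry polyamines rose by less than 2-fold. ATP13A2, the lysosomal polyamine exporter linked to inherited parkinsonism, was at 30.7 and 35.2 CPM in ICAM1-high, against 22.8 and 22.8 CPM in ICAM1-low, and rose by 0.53 (SE 0.09, edgeR adjusted p = 6.68e-07). Its relative ATP13A3, which takes part in polyamine uptake, rose by 0.24 (SE 0.05, adjusted p = 1.51e-05). AGMAT, a mitochondrial member of the agmatinase family, was at 15.3 and 13.8 CPM in ICAM1-high, against 24.3 and 23.3 CPM in ICAM1-low, and fell by 0.71 (SE 0.11, adjusted p = 2.56e-08). DHPS, which starts the conversion of spermidine into the hypusine of EIF5A, had 60 and 70 counts in ICAM1-high and 48 and 35 in ICAM1-low, with a log2 fold change of 0.39 that did not pass (adjusted p = 0.186). EIF5A, named after its values were seen, was at 756 and 779 CPM in ICAM1-high, against 818 and 816 CPM in ICAM1-low, and fell by 0.09 (SE 0.04, adjusted p = 0.0357). With scaling by library size alone it was called higher instead (log2 fold change 0.08, adjusted p = 0.0432), and the call was lost without either ICAM1-low library (adjusted p = 0.186 and 0.164) and with a filter at a mean of 1 CPM (adjusted p = 0.0620). In all, 6 of the 19 tested of this list of 20 were higher, 8 lower and 5 did not pass, with a median log2 fold change of 0.17. Among all genes tested the shares were 30.4% higher and 29.4% lower.

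**Figure D4:**
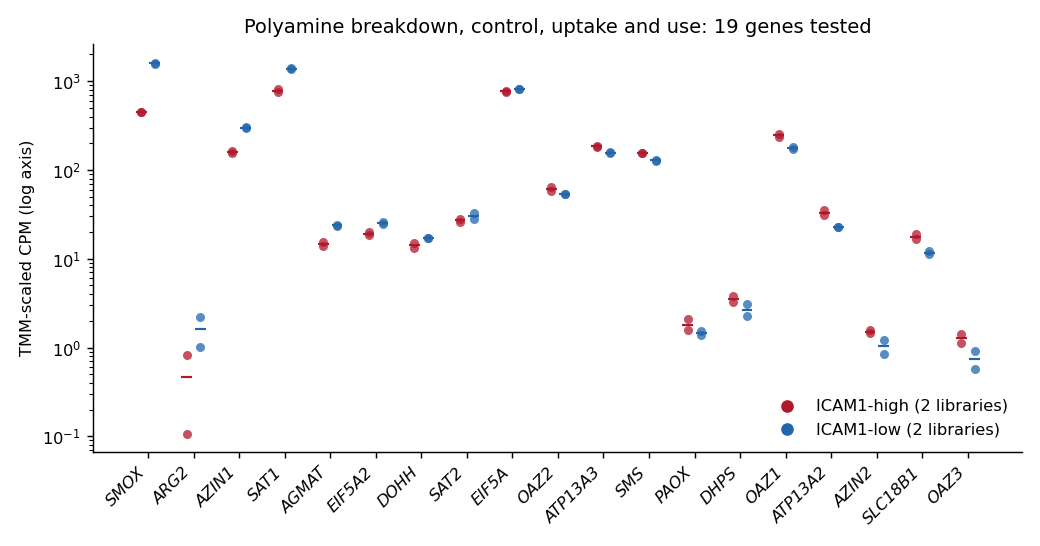
TMM-scaled CPM (log axis) of the 19 tested genes of polyamine breakdown, control, transport and use in the 2 ICAM1-high (red) and 2 ICAM1-low (blue) libraries, ordered by log2 fold change, with bars at the means. SMOX, SAT1 and AZIN1 are abundant and lower in ICAM1-high, at 446, 779 and 159 CPM against 1595, 1377 and 299 CPM in ICAM1-low.

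Of 12 methionine cycle genes listed, 8 were tested, of which 5 were higher and 3 lower, with a median log2 fold change of 0.14. Over all genes tested, 30.4% were higher and 29.4% lower. MTR, the methionine synthase, rose by 0.28 (SE 0.06, edgeR adjusted p = 6.50e-05), and MTRR, the reductase that reactivates it, by 0.58 (SE 0.06, adjusted p = 6.05e-14). MTRR was at 106 and 105 CPM in ICAM1-high, against 70.9 and 69.5 CPM in ICAM1-low.

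AHCY, the hydrolase of S-adenosylhomocysteine, was at 294 and 299 CPM in ICAM1-high, against 347 and 342 CPM in ICAM1-low, and fell by 0.22 (SE 0.04, edgeR adjusted p = 6.91e-06). This call was lost with scaling by library size alone (log2 fold change -0.04, adjusted p = 0.369). Its relative AHCYL2 was at 119 and 104 CPM in ICAM1-high, against 56.9 and 55.4 CPM in ICAM1-low, and rose by 0.99 (SE 0.06, adjusted p = 3.78e-22), while AHCYL1 rose by 0.16 (SE 0.05, adjusted p = 0.00269). The AHCYL1 call was lost without ICAM1-low replicate 1 (adjusted p = 0.144). METTL16, the RNA methyltransferase that acts on hairpins of the MAT2A transcript, was at 75.8 and 77.8 CPM in ICAM1-high, against 113 and 105 CPM in ICAM1-low. It fell by 0.50 (SE 0.06, adjusted p = 9.93e-12), against the direction of MAT2A. MAT1A, the liver form of the synthase, had 5 or 6 counts in every library and was not tested.

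Of 9 genes of transamination and purine steps linked to salvage, 2 were higher, 5 lower and 2 did not pass. The share over all genes tested was 30.4% higher and 29.4% lower. The 9 genes had a median log2 fold change of -0.34. Transaminases that can make methionine from its keto acid were among those that fell. GOT1, the cytosolic aspartate transaminase, was at 53.3 and 52.0 CPM in ICAM1-high, against 142 and 139 CPM in ICAM1-low, and fell by 1.42 (SE 0.06, edgeR adjusted p = 6.96e-33). BCAT1, the cytosolic branched-chain transaminase, was at 54.4 and 51.6 CPM in ICAM1-high, against 132 and 128 CPM in ICAM1-low, and fell by 1.30 (SE 0.06, adjusted p = 2.17e-30). The mitochondrial BCAT2 fell by 0.50 (SE 0.06, adjusted p = 5.16e-10).

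KYAT1, another transaminase of the keto acid, had a log2 fold change of 0.11 (edgeR adjusted p = 0.476). TAT, the tyrosine transaminase, was low, with 1 and 10 counts in ICAM1-high and 10 and 10 in ICAM1-low (adjusted p = 0.138). TAT passed the filter on low counts through ICAM1-low alone. Without ICAM1-high replicate 2 its log2 fold change was -3.42, where the library with 1 count is the sole ICAM1-high library left. IL4I1, a secreted amino acid oxidase, had 51 and 50 counts in ICAM1-high and 11 and 5 in ICAM1-low and rose by 2.39 (SE 0.40, adjusted p = 3.44e-07). IL4I1 passed the filter on low counts only through ICAM1-high, so its p-value adds no separate support for its direction. Without ICAM1-low replicate 1 and without ICAM1-low replicate 2 its log2 fold change lay between 1.94 and 3.03.

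APRT, which returns the adenine released by MTAP to the nucleotide pool, was at 60.9 and 64.0 CPM in ICAM1-high, against 77.2 and 75.8 CPM in ICAM1-low. It fell by 0.29 (SE 0.06, edgeR adjusted p = 4.30e-05), a call that was lost with scaling by library size alone (adjusted p = 0.0926). PNP, the purine phosphorylase related to MTAP, was at 90.1 and 93.1 CPM in ICAM1-high, against 76.5 and 81.0 CPM in ICAM1-low, and rose by 0.22 (SE 0.06, adjusted p = 9.92e-04). That call was lost without ICAM1-low replicate 1 (adjusted p = 0.0905).

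PRMT5, the arginine methyltransferase that accumulated methylthioadenosine inhibits in cells without MTAP, was listed with its partners. PRMT5 was at 109 and 109 CPM in ICAM1-high, against 121 and 113 CPM in ICAM1-low, with a log2 fold change of -0.11 that did not pass (edgeR adjusted p = 0.0830). RIOK1, a substrate adaptor of PRMT5, was at 38.1 and 39.4 CPM in ICAM1-high, against 20.8 and 20.9 CPM in ICAM1-low, and rose by 0.90 (SE 0.09, adjusted p = 3.47e-14). WDR77, its obligate partner, rose by 0.39 (SE 0.08, adjusted p = 7.88e-06), CLNS1A, another adaptor, did not pass (log2 fold change -0.05, adjusted p = 0.455), and COPRS, which directs PRMT5 to histones, fell by 0.25 (SE 0.09, adjusted p = 0.0136). The COPRS call was lost in DESeq2 (adjusted p = 0.0968), with scaling by library size alone (0.468), without ICAM1-high replicate 1 (0.120) and without ICAM1-low replicate 1 (0.0960).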

How the data were processed

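RNA-seq of 4 libraries was analysed, 2 ICAM1-high and 2 ICAM1-low. Per the labels, a SMARTer mRNA kit was used on total RNA from a Trizol extraction. The authors deposited raw read counts per Ensembl gene, 1 column per library. The build was GRCh38 and FastQC was used at version 0.10.1, per the submitters' processing notes, and no aligner, counter, strand setting or handling of shared reads is named in the sources used here. All 58735 identifiers are in GENCODE release 29, which gave positions and exon lengths, and 58207 had a symbol.

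Counts were tested with edgeR 4.0.16 in R 4.3.3 (TMM, robust quasi-likelihood test, filterByExpr at its defaults of 10 counts and 15 in total). Genes with a Benjamini-Hochberg adjusted p under 0.05, over the 16250 tested, count as called. TMM factors were 1.059 and 1.065 in ICAM1-high and 0.940 and 0.944 in ICAM1-low. The common dispersion was 0.00133. Every log2 fold change is that of ICAM1-high over ICAM1-low. The 10 genes and all lists were chosen with earlier results of these data known. Named beside the 10 were CDKN2A, CDKN2B, the PRMT5 list, 5 genes with profiles nearest to MTAP and, of each other list, up to 4 called genes in each direction with the smallest adjusted p and the 2 most abundant uncalled genes. A gene of the methionine cycle that the rule names is counted but not reported here.

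Tested on simulated counts of 15904 genes for this comparison, the fit recovered 40% of 1.25-fold, 88% of 1.5-fold, 82% of 2-fold and 100% of 4-fold changes and made 2 false calls among 157. The simulation gave every gene the common dispersion and changed few genes, evenly in both directions. In the data 59.7% of genes tested were called, so these rates need not hold there. Alternatives were DESeq2 1.42.0, other scalings and filters, a stricter threshold, another gene length, the replicate number as a block and omission of each library in turn.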

Additional observations from a re-analysis of the deposited data

How the results depend on the processing

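In the other fits of all 4 libraries the 10 genes kept 5 higher and 3 lower calls, except with scaling by library size alone. There 7 were higher and 3 lower, with APIP and MAT2B among the higher. These fits reuse the counts on which the genes were chosen, so the kept calls add no separate support. These counts of the 10, and the settings for EIF5A, were added after seeing the data. Scaling by library size shifted the median of all log2 fold changes by 0.17, changed the split of all calls to 6735 higher and 3124 lower (68.3% higher) from 4935 and 4771 (50.8% higher), and left 11 linked genes called lower in place of 17. APIP (-0.07 without ICAM1-high replicate 2) and MAT2B (-0.01 at the lowest) changed sign when single libraries were left out, and both are uncalled in the edgeR fit. PRMT5 (0.07), CLNS1A (0.12) and SAT2 (0.005) had the opposite sign with that scaling, and EIF5A was reversed by it to 0.0831. With the median transcript length in place of exon length, 3 of the 10 places in the order of levels were held in ICAM1-high and 2 in ICAM1-low, so the order of levels depends on the length used.

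The replicate number as a block gave 9812 calls in place of 9706, with 15 linked genes higher and 17 lower as before. Deviations of same-numbered libraries correlated at 0.044 over 11102 genes, and with 2 numbers shared by the subsets, the numbers are not taken as pairs. Omission of single libraries gave 8383 to 9156 calls, DESeq2 7559 and the stricter threshold of 0.01 8243. Among values of named linked and neighbouring genes under these settings, 314 stayed on the same side of the threshold, called or uncalled, 11 lost a call, 3 gained one and 1 reversed. SAT2 gained a call without ICAM1-high replicate 1 or ICAM1-low replicate 2 (adjusted p = 0.0306 and 0.0392). Where an omission leaves a lone library, its spread is taken from the other subset. Depth limits MTAP in ICAM1-low, at 1 and 8 counts, and TAT, IL4I1 and DHPS.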
